A study of Mus musculus with 13 samples.

Results

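Accessible chromatin at 7 immediate early and AP-1 loci, Fos, Fosb, Jun, Junb, Egr1, Ier2 and Atf3, was described in haematopoietic stem cells (HSCs) of mice reconstituted from single cells. A region belonged to a locus when its midpoint lay in a window of 39 to 60 kb set around the gene in mm9 coordinates. This gave 79 of the 115295 regions of the count table, 14 for Fos, 13 for Fosb, 11 for Jun, 11 for Junb, 13 for Egr1, 8 for Ier2 and 9 for Atf3. No mm9 gene annotation was used, so a region is named here for the window that holds it and is not assigned to a promoter, an exon or a single gene. By gene names of the GRCm38 build, Fosb, Junb, Egr1, Ier2 and Atf3 have other protein-coding genes close by, among them Rtn2, Prdx2, Reep2, Nacc1 and Fam71a.

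The cells came from C57BL/6 recipients of 1 transplanted Vwf+ HSC each, grouped by the blood lineages restored over 16 weeks. PLT-HSC came from P-restricted recipients (n = 3 libraries), PEM-HSC from PEM-restricted recipients (n = 6) and MUL-HSC from multilineage recipients (n = 4). All 3 groups shared 1 sort of bone marrow, for donor-derived cells that were LSK, Flt3-, CD150+, CD48-, CD45.2+ and Gata1-, with 500 cells per replicate, so none of them is an untransplanted control. Whether each replicate had its own recipient is not stated in the labels. The p-values therefore cover the spread between these libraries, which may be technical. Omni-ATAC-seq, in which a transposase cuts and tags open chromatin, gave 1276962 to 3851165 counts per library, of which 1979 to 6962 lay in the 79 regions. Values are CPM, the count of a region per 1000000 scaled counts in the regions of its library that were tested. Within bulk libraries, fewer cells with an open region and a less open region in each cell cannot be told apart. Since no gene was assigned to a region, marker genes of the labelled cells were not examined.

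Immediate early genes are transcribed within minutes of a stimulus, without new protein synthesis. Fos and Fosb encode leucine-zipper proteins that pair with Jun or Junb to form AP-1, which binds the TGACTCA motif. Atf3 encodes a stress-induced zipper protein that can pair with Jun proteins. Egr1 encodes a zinc-finger factor that in mice helps to keep HSCs quiescent, Junb limits the expansion of mouse HSCs and myeloid cells, and Ier2 encodes a small nuclear protein induced by growth factors.

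To show the regulatory sequence of genes whose chromatin is compared, the 250 bases before the annotated start are given, 5′ to 3′ on the gene's own strand, from RefSeq (GRCm38.p6). Of the 7 genes, 5 are shown. The regions, in mm9, were not placed on these sequences. Capitals mark matches, on either strand, to the motifs named after the sequences.
Fos (chr12:85473640-85473889, plus strand): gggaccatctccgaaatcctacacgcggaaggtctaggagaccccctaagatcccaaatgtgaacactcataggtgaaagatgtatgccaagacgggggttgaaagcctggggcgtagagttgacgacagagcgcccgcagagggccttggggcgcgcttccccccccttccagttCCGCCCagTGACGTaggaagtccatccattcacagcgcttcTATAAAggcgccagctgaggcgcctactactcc
Fosb (chr7:19310046-19310295, minus strand): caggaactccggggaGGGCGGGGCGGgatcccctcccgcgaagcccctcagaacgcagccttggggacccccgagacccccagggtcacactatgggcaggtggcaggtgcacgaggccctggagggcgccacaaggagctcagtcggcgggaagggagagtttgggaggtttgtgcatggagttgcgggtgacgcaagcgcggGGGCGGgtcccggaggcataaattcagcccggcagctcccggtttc
Jun (chr4:95052223-95052472, minus strand): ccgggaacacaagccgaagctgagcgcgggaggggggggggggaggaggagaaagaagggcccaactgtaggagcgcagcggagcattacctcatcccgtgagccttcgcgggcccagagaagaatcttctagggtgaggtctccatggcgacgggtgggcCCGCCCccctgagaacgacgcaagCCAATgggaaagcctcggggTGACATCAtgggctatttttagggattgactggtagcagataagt
Junb (chr8:84978749-84978998, minus strand): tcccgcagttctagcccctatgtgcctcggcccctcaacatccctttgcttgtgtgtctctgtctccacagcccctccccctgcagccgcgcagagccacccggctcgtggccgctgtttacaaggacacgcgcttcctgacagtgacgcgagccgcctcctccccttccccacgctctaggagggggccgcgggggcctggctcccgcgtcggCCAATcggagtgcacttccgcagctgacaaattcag
Atf3 (chr1:191183334-191183583, minus strand): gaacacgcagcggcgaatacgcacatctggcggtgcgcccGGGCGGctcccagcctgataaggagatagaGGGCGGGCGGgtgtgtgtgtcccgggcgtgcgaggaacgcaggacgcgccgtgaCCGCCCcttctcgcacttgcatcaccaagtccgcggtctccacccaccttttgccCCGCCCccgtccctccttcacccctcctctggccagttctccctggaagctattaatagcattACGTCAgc
TATAAA was found in Fos alone of the 5, 33 to 28 bases before the start, and is present in 12.4% of 32851 promoter windows of the same length. CCAAT was found in Jun and Junb (33.8% of windows). GGGCGG was found in Fos, Fosb, Jun and Atf3 (32.7% of windows), with overlapping pairs of matches in Fosb and Atf3. TGACTCA, the cyclic AMP response element TGACGTCA and the CArG box, the core of the serum response element, had no match in the 5 windows and are present in 4.46%, 1.55% and 1.47% of all windows. The other motifs were chosen after the sequences were seen. TGACGT, the opening letters of the cyclic AMP response element, was found in Fos and Atf3 (6.47% of windows). TGACNTCA, which allows any base at 1 position of that element, was found in Jun (7.49% of windows). A match describes the letters of the sequence and does not show binding. Bases further before the start were not searched, so a motif without a match may lie there.

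Each of the 7 loci held a strong region. The strongest regions, taken by mean CPM over all 13 libraries, ranked between the 94.8th and 99.8th percentile of all regions in the table. Per kb of region, their mean CPM was 90.9 for Egr1, 90.1 for Jun, 79.3 for Junb, 68.8 for Ier2, 64.8 for Fosb, 54.0 for Fos and 30.0 for Atf3. Among these 7 regions that of Atf3 was the lowest on this scale, and those of Egr1 and Jun, the highest, lay close together. The regions were taken by CPM and need not be the highest of their window per kb. In the Fosb window chr7:19889262-19889461 had 104.2 CPM per kb, and in the Fos window chr12:86814357-86815056 had 80.3. Both were picked after their values were seen. Together the 79 regions took 0.158% of all counts and made up 0.0685% of the regions. Of the 79, 59 passed the filter on low counts and were tested, and 20 did not, with mean CPM of 1.02 to 3.74.

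Summed over all regions of a window, accessibility was highest on average at Junb and lowest at Atf3 in each group. PLT-HSC had 298, 281 and 269 summed CPM at Fos in replicates 1 to 3, PEM-HSC 243 to 353 with a median of 268, and MUL-HSC 200.2, 284, 243 and 248 in replicates 1 to 4. The groups overlapped at Fos, with means ± SD of 283 ± 14.4, 281 ± 38.4 and 244 ± 34.2 CPM in PLT-HSC, PEM-HSC and MUL-HSC. At Jun, PLT-HSC had 172, 184 and 184 summed CPM, PEM-HSC 178 to 194 with a median of 187, and MUL-HSC 142, 167, 175 and 151. Every PEM-HSC library lay above every MUL-HSC library at Jun, the 1 locus sum of the 7 where a pair of groups did not overlap. At Atf3, PLT-HSC had 104, 104 and 77.8 summed CPM, PEM-HSC 73.3 to 88.4 with a median of 85.5, and MUL-HSC 62.3, 74.4, 69.7 and 78.5. PLT-HSC replicates 1 and 2 lay above all other libraries at Atf3, while PLT-HSC replicate 3 lay among the MUL-HSC values. Mean sums in PLT-HSC, PEM-HSC and MUL-HSC were 297, 284 and 265 CPM at Fosb, 364, 376 and 329 at Junb, 311, 322 and 274 at Egr1, and 227, 227 and 216 at Ier2. All 7 mean sums were lower in MUL-HSC than in either other group, with log2 ratios of 0.07 (Ier2) to 0.42 (Atf3) for PLT-HSC over MUL-HSC and 0.08 (Ier2) to 0.23 (Egr1) for PEM-HSC over MUL-HSC. Both sets of ratios use the same 4 MUL-HSC libraries and are a description, with no test. MUL-HSC replicate 1 had the lowest sum of all 13 libraries at each of the 7 loci. Without it the ratios still exceeded 0 at all 7 loci, the smallest being 0.0031 for PLT-HSC and 0.02 for PEM-HSC, both at Ier2.

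**Figure D1:**
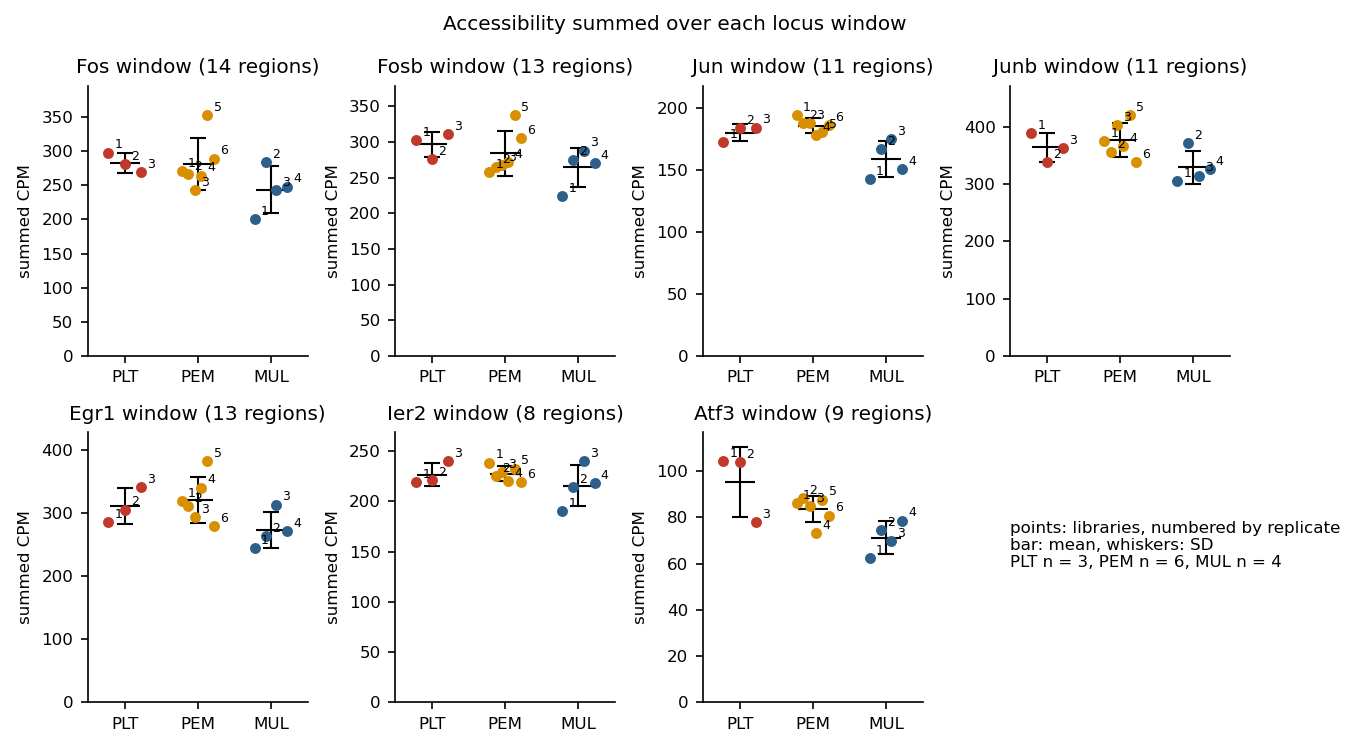
CPM summed over all regions of each locus window, 1 point per library numbered by replicate, with the mean (bar) and SD (whiskers) of PLT-HSC (n = 3), PEM-HSC (n = 6) and MUL-HSC (n = 4). MUL-HSC replicate 1 is the lowest point in all 7 panels, and the PEM-HSC and MUL-HSC points do not overlap at Jun.

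In PLT-HSC against MUL-HSC, 0 of the 59 tested regions of these loci passed an adjusted p of 0.05 (edgeR quasi-likelihood test, adjusted over 59408 regions), where 2.41% of all tested regions did. Unadjusted p fell under 0.05 in 11 of the 59, all higher in PLT-HSC, against 7.47% of all tested regions in that direction. Among the 11, chr18:35042980-35043223 passed the filter on low counts through PLT-HSC and PEM-HSC libraries, as described below for Egr1. With no filter, unadjusted p fell under 0.05 in 12 of the 79, in either direction. DESeq2 gave 0 calls at these loci and 1114 over the 59408 tested regions. At that unadjusted level it gave 8 regions of these loci. The groups did not overlap in 7 regions (11.9%), all higher in PLT-HSC, against 6.67% of all tested regions. With no filter on low counts, the fold change was above 0 at 58 of all 79 regions (73.4%), against 49.9% of all regions. Without MUL-HSC replicate 1, 39 of 60 tested regions (65.0%) lay above 0, against 50.7% of all tested regions. With all libraries 46 of 59 (78.0%) did, against 51.4% of all tested regions. The count at an unadjusted p under 0.05 was 7 with PLT-HSC replicate 1 left out and 5 with MUL-HSC replicate 1 left out. The share of all tested regions at that level was not counted in these fits, by DESeq2 or with no filter. Those counts therefore have no share to be set against. The median log2 fold change of the tested regions was 0.17, against 0.01 over all tested regions, and it was 0.11 without MUL-HSC replicate 1.

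Fos had its strongest region at chr12:86826392-86827463. It measured 65.4, 60.3 and 54.4 CPM in PLT-HSC, 55.6 to 68.8 with a median of 61.7 in PEM-HSC, and 43.0, 56.2, 50.2 and 49.2 CPM in MUL-HSC. MUL-HSC libraries were lowest except replicate 2, which overlapped both other groups. The log2 fold change was 0.28 ± 0.12 (SE) for PLT-HSC over MUL-HSC (adjusted p = 0.257) and 0.33 ± 0.11 for PEM-HSC over MUL-HSC (adjusted p = 0.139, edgeR). A weaker Fos region at chr12:86798598-86799025 had 1 of the 3 smallest p-values for PLT-HSC against MUL-HSC. It measured 27.3, 36.0 and 23.7 CPM in PLT-HSC, 22.4 to 31.5 with a median of 25.5 in PEM-HSC, and 13.5, 17.4, 19.6 and 23.6 CPM in MUL-HSC. PLT-HSC lay above all MUL-HSC libraries, with PLT-HSC replicate 3 and MUL-HSC replicate 4 nearly equal. Its log2 fold change for PLT-HSC over MUL-HSC was 0.59 ± 0.19 (adjusted p = 0.0973, edgeR). A Fos region nearly as strong as the strongest, chr12:86814357-86815056, was picked after its values were seen and was not lower in MUL-HSC. It averaged 53.9 CPM in PLT-HSC, 55.7 in PEM-HSC and 58.5 in MUL-HSC. Its log2 fold change was -0.10 ± 0.12 for PLT-HSC over MUL-HSC and -0.05 ± 0.11 for PEM-HSC over MUL-HSC.

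Fosb, which encodes a close relative of Fos, had its strongest region at chr7:19893477-19894258. PLT-HSC had 39.4, 50.9 and 56.7 CPM there, PEM-HSC 43.2 to 60.8 with a median of 50.0, and MUL-HSC 48.8, 51.3, 57.7 and 44.2 CPM. The 3 groups covered nearly the same range, and the log2 fold change was -0.04 ± 0.14 for PLT-HSC over MUL-HSC (95% interval -0.33 to 0.25). A neighbouring region, chr7:19893131-19893365, separated both other groups from MUL-HSC. It measured 8.79 to 10.3 CPM in PLT-HSC and 8.03 to 12.6 CPM in PEM-HSC, against 2.57 to 7.63 CPM in MUL-HSC. This region was picked after its values were seen, and its adjusted p was 0.301 for PLT-HSC and 0.205 for PEM-HSC against MUL-HSC (edgeR).

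Jun encodes the partner that many AP-1 dimers share. At its strongest region, chr4:94718716-94719661, PLT-HSC had 72.9, 99.97 and 76.8 CPM, PEM-HSC 84.8 to 96.4 with a median of 86.3, and MUL-HSC 71.2, 90.1, 88.3 and 74.0 CPM. The groups overlapped, with a log2 fold change of 0.04 ± 0.12 for PLT-HSC over MUL-HSC and 0.14 ± 0.10 for PEM-HSC over MUL-HSC. An adjacent region, chr4:94719785-94720253, had 31.2, 29.4 and 37.3 CPM in PLT-HSC, 28.2 to 48.1 with a median of 38.2 in PEM-HSC, and 23.1, 28.9, 28.6 and 29.4 CPM in MUL-HSC. PEM-HSC replicate 6 was the 1 PEM-HSC library within the MUL-HSC range. For PEM-HSC over MUL-HSC its log2 fold change was 0.46 ± 0.14 (adjusted p = 0.123, edgeR). Another Jun region, chr4:94715907-94716153, averaged 12.1 ± 2.52 CPM in PLT-HSC, 11.6 ± 3.22 in PEM-HSC and 6.25 ± 3.89 in MUL-HSC (SD). It was picked after its values were seen, for passing the threshold in a fit that left out 1 library. Its adjusted p was 0.187 for PLT-HSC and 0.201 for PEM-HSC against MUL-HSC with all 13 libraries (edgeR). Without MUL-HSC replicate 3, the highest MUL-HSC library at 11.5 CPM, its adjusted p was 0.0365 for PLT-HSC and 0.0391 for PEM-HSC (edgeR). In that fit 3.51% of all tested regions passed for PLT-HSC and 2.02% for PEM-HSC against MUL-HSC, more than with all libraries, and the region passed in no other fit that left out 1 library.

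Junb encodes a Jun protein that can oppose Jun at some genes. Its strongest region, chr8:87499934-87500775, had 69.6, 58.9 and 62.0 CPM in PLT-HSC, 56.7 to 84.5 with a median of 74.8 in PEM-HSC, and 35.3, 80.2, 66.2 and 63.3 CPM in MUL-HSC. MUL-HSC held both the lowest library, replicate 1, and one of the highest, replicate 2. Another Junb region, chr8:87502429-87502934, separated the groups more evenly. PLT-HSC had 42.6, 36.0 and 39.9 CPM there, PEM-HSC 37.6 to 43.2 with a median of 40.3, and MUL-HSC 34.0, 33.1, 22.6 and 29.4 CPM. All MUL-HSC libraries lay below every other library. The log2 fold change was 0.43 ± 0.14 for PLT-HSC over MUL-HSC (adjusted p = 0.105) and 0.44 ± 0.13 for PEM-HSC over MUL-HSC (adjusted p = 0.0909, edgeR). No other region of these loci had a smaller adjusted p for PEM-HSC against MUL-HSC.

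At Atf3 the strongest region, chr1:193006250-193007622, had 54.7, 51.9 and 35.3 CPM in PLT-HSC, 35.4 to 54.9 with a median of 40.5 in PEM-HSC, and 33.4, 37.2, 36.1 and 33.9 CPM in MUL-HSC. MUL-HSC libraries lay close together at the low end, and PLT-HSC replicate 3 and PEM-HSC replicates 4 and 5 lay among them. The log2 fold change was 0.43 ± 0.16 for PLT-HSC over MUL-HSC (adjusted p = 0.159, edgeR). This value varied between fits, and the part of depth in that was not tested. It was 0.60 (adjusted p = 0.0319) without PLT-HSC replicate 3 and 0.29 (adjusted p = 0.566) without PLT-HSC replicate 1 (edgeR). It was 0.14 (adjusted p = 0.844) with all libraries thinned to the smallest total, and 0.42 (adjusted p = 0.343) without the libraries under 2000000 counts (edgeR).

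The strongest Egr1 region, chr18:35019782-35021074, was the most accessible of all 79. PLT-HSC had 111, 114 and 129.9 CPM, PEM-HSC 94.5 to 142 with a median of 118, and MUL-HSC 106, 97.6, 137 and 106 CPM. The groups overlapped throughout, with log2 fold changes of 0.08 ± 0.13 for PLT-HSC over MUL-HSC and 0.11 ± 0.11 for PEM-HSC over MUL-HSC. A weaker region, chr18:35009521-35010130, had 16.9, 17.3 and 18.1 CPM in PLT-HSC, 13.8 to 19.7 with a median of 17.6 in PEM-HSC, and 8.98, 9.10, 13.5 and 11.8 CPM in MUL-HSC. MUL-HSC libraries were below all others, with PEM-HSC replicate 3 and MUL-HSC replicate 3 nearly equal. Its log2 fold change was 0.65 ± 0.22 for PLT-HSC over MUL-HSC (adjusted p = 0.113) and 0.63 ± 0.20 for PEM-HSC over MUL-HSC (adjusted p = 0.121, edgeR). The smallest adjusted p of these loci for PLT-HSC against MUL-HSC, 0.0778 by edgeR, belonged to chr18:35042980-35043223. It held 43 counts over the 3 PLT-HSC libraries and 9 over the 4 MUL-HSC libraries, which gave 6.83, 8.88 and 0.989 CPM in PLT-HSC against 0.642, 0.827, 1.003 and 1.91 CPM in MUL-HSC. PLT-HSC replicates 1 and 2 were high and replicate 3 was within the MUL-HSC range. The region passed the filter on low counts through PLT-HSC and PEM-HSC libraries, so its difference from MUL-HSC is in part fixed by that filter. Its log2 fold change was 2.13 ± 0.66 with all libraries, 1.91 (adjusted p = 0.295) without PLT-HSC replicate 1, 1.68 (adjusted p = 0.31) without PLT-HSC replicate 2 and 2.64 (adjusted p = 0.00793, edgeR) without PLT-HSC replicate 3. It was not tested after thinning, at a mean of at least 20 counts, in the fit of the compared groups alone or without PEM-HSC replicate 5, where it fell under the filter.

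Ier2 had the smallest log2 ratio of locus sums in both comparisons with MUL-HSC. Its strongest region, chr8:87180223-87181062, had 57.6, 52.8 and 58.0 CPM in PLT-HSC, 57.9 to 63.3 with a median of 61.5 in PEM-HSC, and 44.9, 51.3, 61.2 and 57.6 CPM in MUL-HSC. The 3 groups overlapped, with log2 fold changes of 0.05 ± 0.12 for PLT-HSC over MUL-HSC and 0.17 ± 0.10 for PEM-HSC over MUL-HSC. Across the strongest regions of the 7 loci, 95% intervals of the log2 fold change for PLT-HSC over MUL-HSC ran from -0.33 to 0.75. Changes of 2-fold or more lay outside the intervals of all 7.

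In PEM-HSC against MUL-HSC, which uses the same MUL-HSC libraries, 0 of 59 regions passed the adjusted threshold, where 0.832% of all tested regions did (edgeR). Unadjusted p fell under 0.05 in 11 regions, all higher in PEM-HSC, against 6.2% of all tested regions in that direction. Among the 11, chr18:35042980-35043223 and chr1:193009953-193010346 passed the filter on low counts through PLT-HSC and PEM-HSC libraries. Their difference from MUL-HSC is in part fixed by that filter. With no filter, unadjusted p fell under 0.05 in 14 of the 79, in either direction. DESeq2 gave 0 calls and 10 regions at that unadjusted level. The groups did not overlap in 4 regions (6.78%), all higher in PEM-HSC, against 1.51% of all tested regions. With no filter, the fold change was above 0 at 58 of 79 regions (73.4%), against 50.9% of all regions. Without MUL-HSC replicate 1, 42 of 60 tested regions (70.0%) lay above 0, against 51.7% of all tested regions. With all libraries 49 of 59 (83.1%) did, against 51.9% of all tested regions. The number of regions at an unadjusted p under 0.05 was 7 with PEM-HSC replicate 5 left out and 6 with MUL-HSC replicate 1 left out. As above, the share of all tested regions at that level was not counted in these fits, by DESeq2 or with no filter. The 95% intervals of the 7 strongest regions ran from -0.21 to 0.59, so 2-fold changes lay outside them here too.

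In PLT-HSC against PEM-HSC, 0 of 59 regions passed by edgeR or DESeq2. Of all tested regions, 0.00168% passed by edgeR and 0 by DESeq2. An unadjusted p under 0.05 was given to 1 region by each tool, higher in PLT-HSC, against 2.45% of all tested regions in that direction by edgeR. The groups overlapped at every one of the 59 regions. Over all tested regions they did not at 2.29%, a share too small for this to set the 59 apart. The smallest p belonged to chr7:19881018-19881520 in the Fosb window, with 13.02, 15.4 and 20.8 CPM in PLT-HSC, against 6.01 to 14.9 with a median of 10.1 in PEM-HSC. The log2 fold change was 0.58 ± 0.23 (unadjusted p = 0.0181, adjusted p = 1, edgeR). The next smallest, also with an adjusted p of 1 by edgeR, were chr7:19864908-19865358 in the Fosb window and chr4:94742170-94742812 in the Jun window. The first of these had 3.27 to 5.53 CPM in PLT-HSC and 0 to 3.80 CPM in PEM-HSC, where the count of 0 in replicate 6 allows up to 1.88 CPM. This Fosb region passed the filter on low counts through PLT-HSC and MUL-HSC libraries, so its difference from PEM-HSC is in part fixed by that filter. The Jun region is described with the spread between libraries. Fold changes were above 0 at 39 of all 79 regions (49.4%), against 48.6% of all regions, and at 29 of the 59 tested, against 50% of all tested regions. For the 7 strongest regions the 95% intervals ran from -0.53 to 0.49 on the log2 scale.

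**Figure D2:**
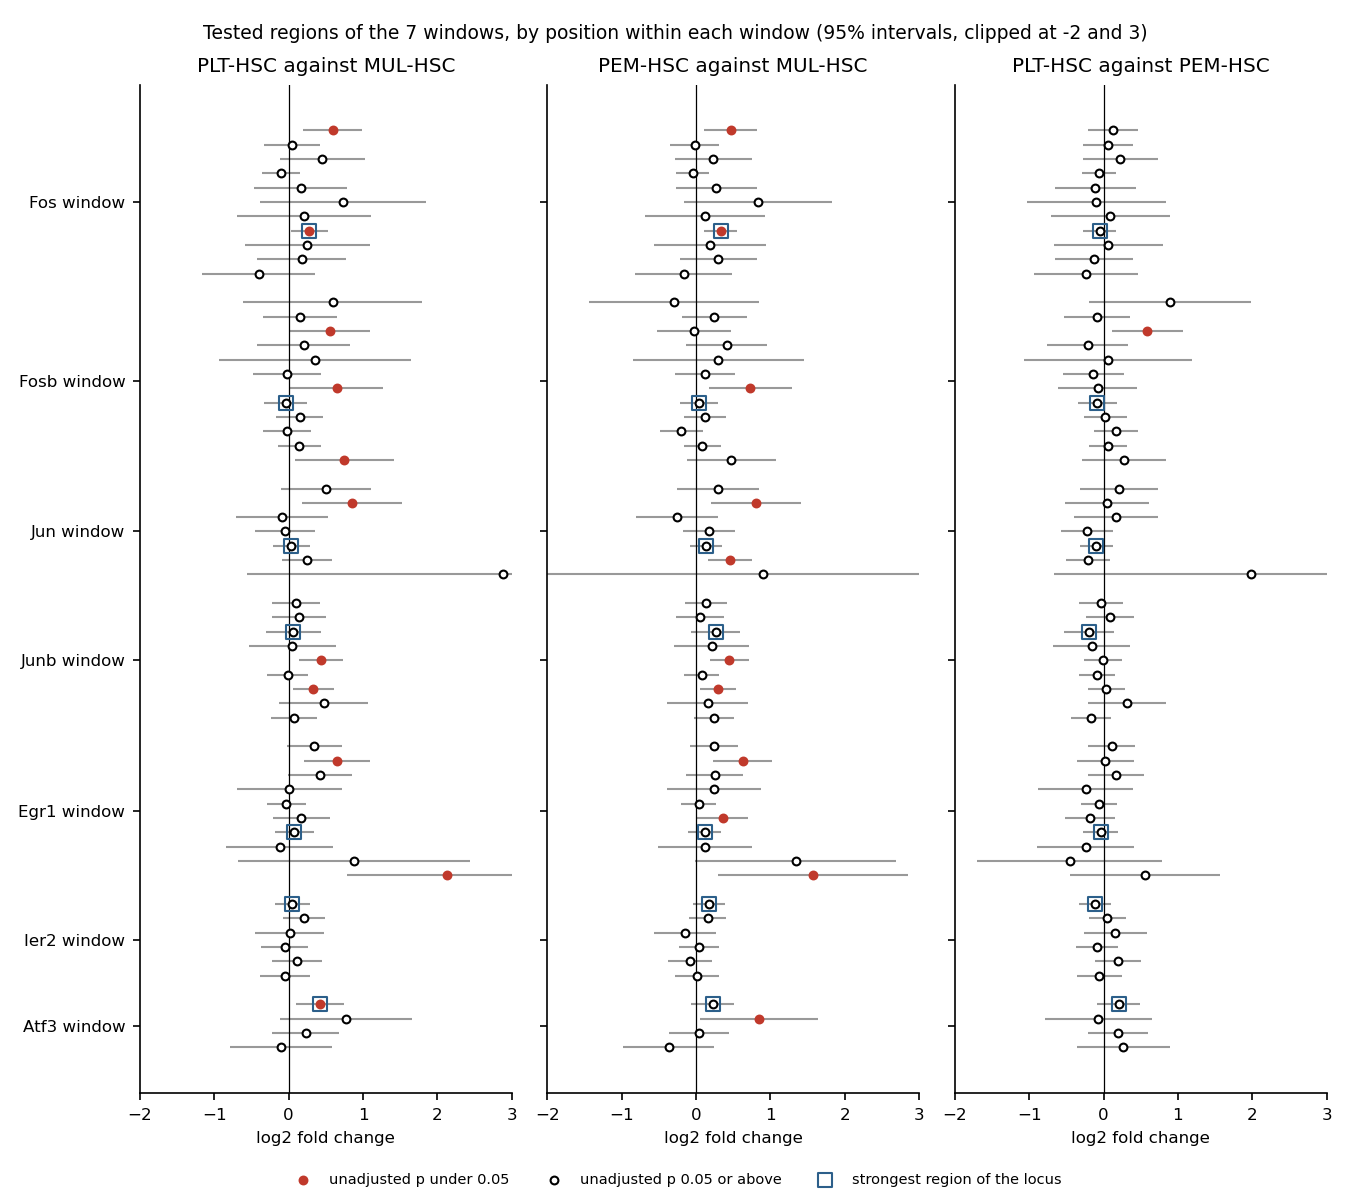
Log2 fold change (x axis) of the 59 tested regions in the 3 comparisons, in order of position within each window, with 95% intervals. Filled points have an unadjusted p under 0.05, and squares are the strongest region of each locus. The filled points of both panels against MUL-HSC all lie right of 0, 11 in each, and the panel of PLT-HSC against PEM-HSC has 1.

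The spread between libraries of a group was not uniform within a locus. Over the 59 tested regions, the median SD of log2 CPM within groups was 0.27, against 0.37 over all tested regions, at a median log2 CPM of 4.40 against 3.22. Stronger regions have less counting error, so these medians are not matched for level. The median biological coefficient of variation, the spread beyond counting error, was 14.02% against 18.4% over all tested regions. Set against the trend for regions of like level, the ratio had a median of 0.947, against 0.917 over all tested regions. The strongest region of each locus lay between the 1.15th (Ier2) and 39.6th (Junb) percentile of SD. Of the 59 regions, 17 exceeded the median SD of all tested regions and 6 exceeded its 90th percentile.

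Regions of Fos, Fosb and Egr1 stood far above the spread usual for their level. They were picked after their values were seen, so the values are a description. In the Fos window, chr12:86818231-86819216, at -8.2 kb from the strongest region (midpoint to midpoint), had 50.8, 33.6 and 28.0 CPM in PLT-HSC, 27.4 to 69.3 with a median of 36.1 in PEM-HSC, and 3.85, 33.1, 32.6 and 21.4 CPM in MUL-HSC. In the Fosb window, chr7:19886907-19887999, at -6.41 kb from the strongest region, had 48.5, 12.6 and 36.6 CPM in PLT-HSC, 20.1 to 51.3 with a median of 25.2 in PEM-HSC, and 4.49, 38.0, 33.1 and 29.0 CPM in MUL-HSC. In the Egr1 window, chr18:35024654-35025654, at 4.73 kb from the strongest region, had 12.7, 12.6 and 31.7 CPM in PLT-HSC, 8.14 to 49.0 with a median of 26.9 in PEM-HSC, and 3.21, 5.79, 19.1 and 11.1 CPM in MUL-HSC. PEM-HSC replicate 5 was the highest of the 13 libraries and MUL-HSC replicate 1 the lowest in all 3 regions. The ratio between these libraries was 18 at Fos, 11.4 at Fosb and 15.3 at Egr1. Between the highest and the lowest library it was 1.6, 1.54 and 1.5 at the strongest regions of the same loci. Within-group SDs of the variable regions were at the 95.9th, 97.8th and 97.5th percentile of all tested regions. The remaining libraries did not keep 1 order, with PLT-HSC replicate 3 lowest of its group at Fos and highest of its group at Egr1. The Jun region of largest SD, chr4:94742170-94742812, was weak. PLT-HSC had 6.83, 0 and 15.8 CPM there, PEM-HSC 0 to 6.89 with a median of 0.714, and MUL-HSC 0.642, 4.96, 0 and 0 CPM. Each group held at least 1 library at 0, where a count of 0 allows up to 1.14 to 1.72 CPM.

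**Figure D3:**
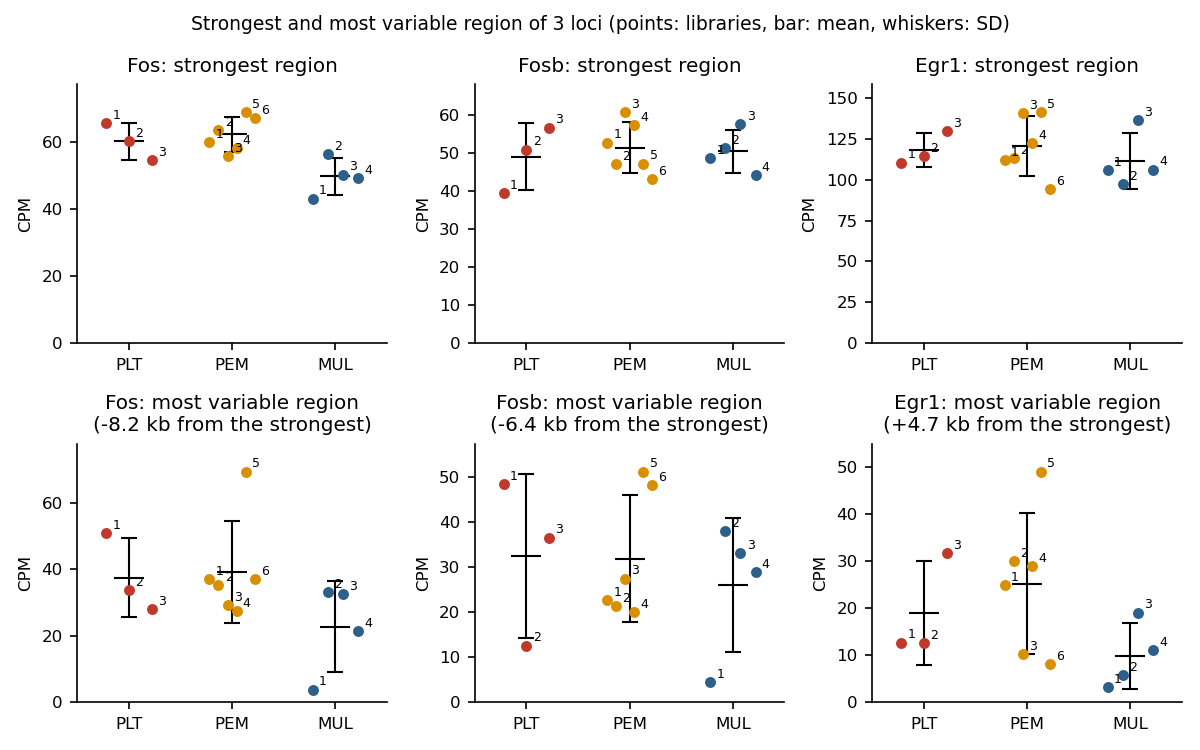
CPM of the strongest (top) and most variable (bottom) region of the Fos, Fosb and Egr1 windows, 1 point per library numbered by replicate, with mean and SD of PLT-HSC, PEM-HSC and MUL-HSC. The highest library is 1.5 to 1.6 times the lowest in the top panels, and in all 3 bottom panels PEM-HSC replicate 5 is highest and MUL-HSC replicate 1 lowest.

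**Figure D4:**
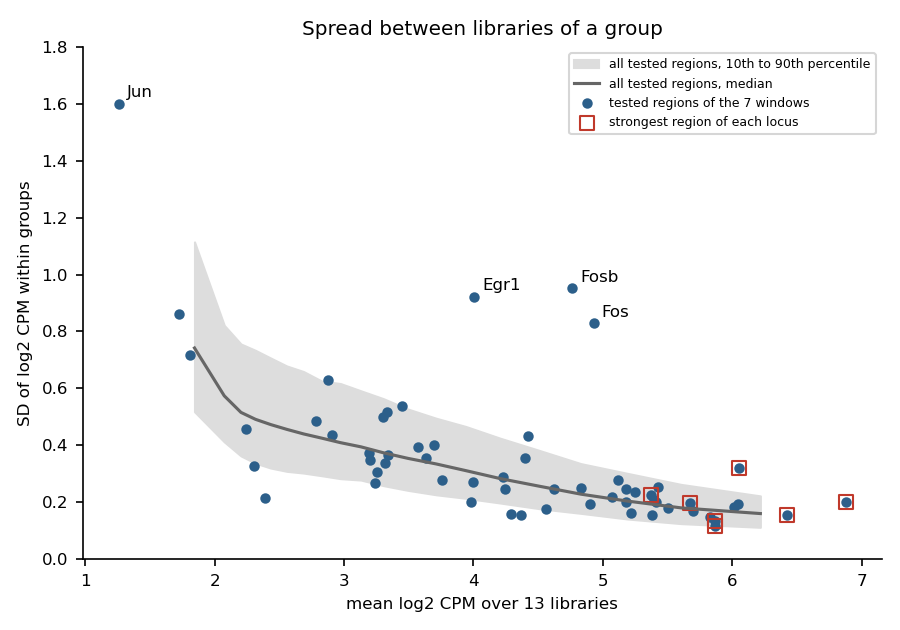
SD of log2 CPM within groups (y axis) against mean log2 CPM over 13 libraries (x axis) for the 59 tested regions, with the strongest of each locus squared, over the median and the 10th to 90th percentile of all tested regions. The labelled Fos, Fosb and Egr1 regions, with SDs of 0.83, 0.95 and 0.92, and the weak Jun region, at 1.60, lie apart from the rest.

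PEM-HSC replicate 5 and MUL-HSC replicate 1 stood at the ends of the range over many of these regions. PEM-HSC replicate 5 had the highest sum of the 13 libraries at 4 of the 7 loci. It was the highest at 17 of the 59 tested regions (28.8%), against 4.85% of all tested regions, and the lowest at 0, against 4.33%. MUL-HSC replicate 1 was the lowest at 23 of the 59 (39.0%), against 11.6% of all tested regions, and the highest at 0, against 10.7%. Neither library was at an end of the range in the share of its counts in the 5000 strongest regions, which was 34.4% in PEM-HSC replicate 5 and 34.9% in MUL-HSC replicate 1, within 32.9% to 38.0% over the 13. The totals of PEM-HSC replicate 5 and MUL-HSC replicate 1 were 3823657 and 1728184 counts. The part of depth or of library quality in this pattern was not tested.

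Outside the windows, the regions whose log2 CPM over the 13 libraries was most like the mean of the 7 strongest regions were chr13:97442365-97442569 (Pearson r = 0.933), chr8:98376888-98377611 (0.932) and chr10:68136204-68136934 (0.925). They are the highest of 59349 regions, whose 99th percentile of r was 0.761, so these values are a ranking. The 13 points share library depth, and the mean of the strongest regions had an r of 0.175 with the log2 library total. MUL-HSC replicate 1 had the lowest mean of the strongest regions, 5.68 on the log2 CPM scale, and the other 12 libraries had 5.87 to 6.15.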

How the data were processed

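Omni-ATAC-seq counts of 13 libraries were analysed. The values are raw counts per accessible region, as deposited by the authors. The submitters' processing notes name mm9, Bowtie2, MACS2, Picard, SAMtools, FastQC and Trim Galore. The sources used here do not give their settings, the counting step, how libraries were pooled to call regions, the handling of duplicates, any transposase shift or whether starts count from 0 or 1.

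Counts were fitted in R 4.3.3 with edgeR 4.0.16, using filterByExpr by group, TMM scaling and 1 robust quasi-likelihood fit of all 13 libraries. Tests were two-sided, with Benjamini-Hochberg adjustment over 59408 regions holding 91.4% of counts and a threshold of 0.05. CPM uses the scaled totals of tested regions, and log2 CPM a prior count of 2. A count of 0 allows up to 3 counts, for counting error only. The test was checked on simulated counts, with the same spread set for every region. Of planted 2-fold changes it called 38% in PLT-HSC against MUL-HSC, 44% in PEM-HSC against MUL-HSC and 38% in PLT-HSC against PEM-HSC. Of planted 4-fold changes it called 90%, 95% and 90%. Most 2-fold changes were missed, so 0 calls do not show that no region changed. The 24 within-group pairs of libraries differed beyond sampling noise (chi-square per degree of freedom 1.44 to 2.23), so none was counted as a duplicate. The text names the strongest region of each locus, regions past the threshold, the 3 smallest p-values per comparison, and the 3 outside regions most like the strongest. Others are said to be picked after their values were seen, or were flagged for a library far from its group. The loci, windows and lists were chosen with earlier results of these data known. Alternatives were DESeq2 1.42.0, library totals alone, cyclic loess offsets (limma 3.58.1), other filters, the compared groups alone, fewer libraries, thinning, a replicate block and narrower windows. Counts and medians of fold changes under the alternatives were added after seeing the data. Other immediate early genes were not analysed here, since no mm9 annotation was used.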

Additional observations from a re-analysis of the deposited data

Results flagged for a closer look

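Of 56 groups of PEM-HSC or MUL-HSC values at these loci, 4 held 1 library far from the rest of its group. PLT-HSC, with 3 libraries, was too small a group for this rule and was not examined. Chance gives such a gap in about 1 group in 20. That rate is for groups not chosen by their spread, and 3 of the 4 lie in the region of largest SD of their window, so the number is not read against it. At chr12:86818231-86819216 in the Fos window, PEM-HSC replicate 5 had 69.3 CPM and the other PEM-HSC libraries 27.4 to 37.2. At chr4:94719785-94720253 in the Jun window, MUL-HSC replicate 1 had 23.1 CPM and the other MUL-HSC libraries 28.6 to 29.4. At chr4:94742170-94742812, also in the Jun window, MUL-HSC replicate 2 had 4.96 CPM and the other MUL-HSC libraries 0 to 0.642. At chr1:193021851-193022351 in the Atf3 window, PEM-HSC replicate 2 had 1.72 CPM and the other PEM-HSC libraries 5.16 to 7.18.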

How the results depend on the processing

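Of the alternatives run, 0 tested regions of these loci passed in every comparison under each except leaving out 1 library. Over the table, these alternatives called 275 (without the libraries under 2000000 counts) to 2078 regions (no filter) for PLT-HSC against MUL-HSC. They called 13 to 644 for PEM-HSC against MUL-HSC, in the same fits, and 0 to 9 for PLT-HSC against PEM-HSC. Where few regions pass over the table, 0 calls say little about these loci. Over the fits that left out 1 library the count ranged from 0 to 2 for PLT-HSC against MUL-HSC and from 0 to 1 for PEM-HSC against MUL-HSC. It stayed at 0 for PLT-HSC against PEM-HSC, and the count of strongest regions ranged from 0 to 1 for PLT-HSC against MUL-HSC. Counts of 1 came without MUL-HSC replicate 3 in both comparisons with MUL-HSC, and the 2 came without PLT-HSC replicate 3, a fit in which 3.24% of all tested regions passed against 3.17% of those at these loci. At an unadjusted p under 0.05, the 11 regions of PLT-HSC against MUL-HSC numbered 6 when thinned and 5 without the libraries under 2000000 counts. The 11 of PEM-HSC against MUL-HSC numbered 6 in each of these and in the replicate block fit. The share of all tested regions at that level was not counted in these fits. Leaving out 1 library, regions with a fold change above 0 ranged from 39 to 51, 42 to 52 and 25 to 32 in the 3 comparisons. With windows of reduced width, the log2 ratio of locus sums became 0.35 for PEM-HSC over MUL-HSC at Atf3 and -0.10 for PLT-HSC over PEM-HSC at Jun.

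Some strongest regions with fold changes near 0 changed sign, and the cause was not tested. For PLT-HSC over MUL-HSC without the libraries under 2000000 counts, the log2 fold change was -0.0288 at Junb, -0.0371 at Egr1 and -0.0818 at Ier2, and thinned to the smallest total it was -0.0185 at Ier2. With cyclic loess offsets it was -0.0113 at Fosb for PEM-HSC over MUL-HSC and 0.0368 at Egr1 for PLT-HSC over PEM-HSC. Thinning gave 0.0242 at Egr1 and -0.0079 at Atf3 for PLT-HSC over PEM-HSC. Leaving out 1 library gave, for PLT-HSC over MUL-HSC, -0.17 to 0.10 at Fosb, -0.10 to 0.12 at Jun, -0.13 to 0.18 at Junb, -0.00079 to 0.18 at Egr1 and -0.0334 to 0.11 at Ier2. It gave -0.0378 to 0.12 at Fosb for PEM-HSC over MUL-HSC, and -0.13 to 0.0111 at Fos, -0.22 to 0.0551 at Fosb and -0.12 to 0.011 at Egr1 for PLT-HSC over PEM-HSC. Same-numbered libraries did not deviate together (r -0.136 to 0.099), so replicate numbers were not taken as pairs. A fit with replicate number as a block called 0 regions of these loci in each comparison and 682, 108 and 9 over the table, against 1431, 494 and 1 without it, and gave 0.0155 at the strongest Fos region for PLT-HSC over PEM-HSC. At this depth, 20 of the 79 regions had too few counts to be tested.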
